A study of Homo sapiens with 4 samples.

Results

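Proteins bound for the cell surface, for secretion or for lysosomes enter the endoplasmic reticulum (ER) through a membrane channel and leave it in coated vesicles that reach the Golgi. The genes described here encode parts of that route. They were taken by symbol from the array annotation: names starting with SEC and a number, COP coat subunits, TRAPP subunits (TRAPPC), TMED cargo receptors, the ARF GTPases, golgins (GOLGA and GOLGB) and signal recognition particle subunits (SRP). The rule found 90 genes among 19775 with an unambiguous symbol, 83 of them protein-coding, and for each gene the probe set of highest mean log2 signal was used. The name rule also takes in genes with other functions, such as the SEC14-like lipid-binding proteins, and 7 pseudogenes and non-coding transcripts, which are described apart from the rest.

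The cells were Z138, an established human cell line from mantle cell lymphoma, a cancer of B cells, carrying stable lentiviral short hairpins. The knockdown samples, shSOX11.1 and shSOX11.3, hold different hairpins against the transcription factor SOX11. The control samples, shControl.1 and shControl.2, hold different scrambled hairpins, so all 4 samples had been transduced and came from 1 line. Each hairpin was measured once, on 1 Affymetrix U133 Plus 2.0 array, and the labels name no separate cultures of a hairpin. The p-values therefore measure the spread between these samples alone, which may be technical, and precision is limited by having 4 arrays.

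In this route the signal recognition particle brings a ribosome with its nascent chain to the SEC61 channel, and signal peptidase removes the signal peptide. The COPII coat then buds vesicles from the ER, the COPI coat and ARF GTPases serve retrograde and Golgi transport, TMED proteins sort cargo, and TRAPP and golgins tether vesicles at their target. B cells that become antibody-secreting plasma cells are known for expanding this machinery under the transcription factor XBP1.

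SOX11 had a signal of 335 and 339 on the shSOX11 arrays, against 797 and 787 on the shControl arrays, which is 42.5% of control (log2 change -1.23, SE 0.15, limma adjusted p = 0.131). Of 5 B-cell markers measured, 4 (MS4A1, CD79A, CD79B and PAX5) lay above the signal threshold on all 4 arrays. Their 5 signals summed to 8321 and 9758 with shSOX11 and to 11439 and 10844 with shControl. Above the threshold on all 4 arrays were 1 of 6 T and NK cell markers (CD3G), 0 of 5 myeloid, 1 of 2 erythroid (HBB) and 2 of 4 epithelial and stromal markers (KRT8 and COL1A1). The sums were 203 and 248 with shSOX11 against 262 and 286 with shControl for T and NK cells, 95.6 and 84.2 with shSOX11 against 83.7 and 75.4 with shControl for myeloid cells, 68.5 and 55.8 with shSOX11 against 87.9 and 49.1 with shControl for erythroid cells and 1123 and 939 with shSOX11 against 1151 and 1094 with shControl for epithelial and stromal cells. No marker was listed at 0, the lowest being CD8A at 0.886 on shSOX11.3. The 3′/5′ signal ratio of beta-actin, which reflects RNA integrity and labelling, was 7.29 and 5.31 with shSOX11 and 11.6 on both shControl arrays, while that of GAPDH lay between 0.978 and 1.06 on all 4. The B-cell sum and the actin ratio moved with the groups, and their part in the differences described here was not tested. All 4 samples came from 1 line. In its bulk RNA, fewer cells expressing a marker and less of its RNA per cell cannot be told apart.

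The secretory genes as a list shifted little between the groups. Of the 90 genes, 78 passed the filter, a signal over 24.83 (the median over the whole table) on 2 or more arrays. Their median log2 change, shSOX11 minus shControl, was 0.046, against -0.063 for the 11938 genes tested. Of the 78, the COPII subunit SEC31B passed the filter through the shSOX11 arrays alone. It was under the threshold on both shControl arrays, so no size of change is read from it. Without it the median of the other 77 was 0.043. The log2 changes of these 77 ran from -0.84 for the pseudogene SEC14L1P1, whose signals lie near the threshold, to 0.56 for SEC23IP. Set against the mean of the control arrays, the members had a median of 0.017 for shSOX11.1 and -0.0072 for shSOX11.3, and all genes had -0.0043 and -0.098. Within a group, the members' median absolute log2 difference was 0.23 between the shSOX11 arrays and 0.15 between the shControl arrays.

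**Figure D1:**
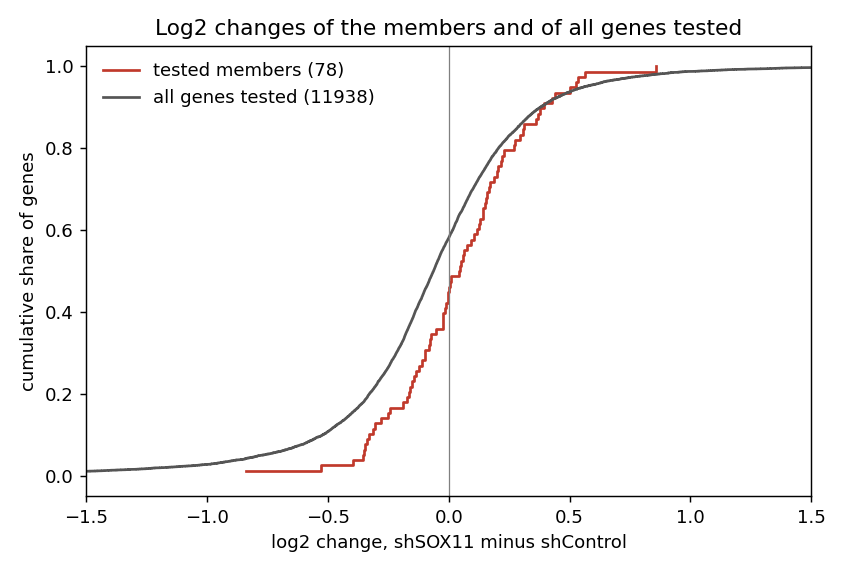
Cumulative share of genes (vertical axis) against the log2 change, shSOX11 minus shControl (horizontal axis), for the 78 tested members and all 11938 genes tested. The members' median lies at 0.046 and that of all genes at -0.063.

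None of the 78 members passed a limma adjusted p of 0.05, and 0% of all genes tested did; the smallest adjusted p among members was 0.416, for ARF4. At an unadjusted limma p under 0.05 there were 6 members (7.69%, against 8.38% of all genes tested), a share near the background. All 6 were higher with shSOX11, where 3.4% of all genes were higher, and 0 were lower, where 4.98% of all genes were. This split depended on the setting: limma without the intensity trend gave 3 higher and 1 lower, and no signal filter gave 7 and 2. In the other settings that kept all arrays 0 were lower. The groups did not overlap for 33 members (42.3%, against 41% of all genes). Of these, 17 were higher with shSOX11 (21.8%, against 16.2%) and 16 lower (20.5%, against 24.9%). With SEC31B and the other genes above the threshold in 1 group alone left out, the members split into 16 and 16, where 15.6% of all genes were higher and 23.5% lower. After centring each array on its median the split of the 78 was 29 higher and 7 lower, where 23.3% of all genes were higher and 17.6% lower. After quantile normalization it was 19 and 16, where 16.5% were higher and 24.1% lower. The log2 change was above 0 for 43 members (55.1%, against 41.9% of all genes) and below 0 for 35 (against 58.1%), and with median centring 69.2% of members lay above 0, against 52.7% of all genes. Differences of 1.5-fold or more on every pair of arrays were found for 0 higher members (against 0.762% of all genes) and 1 lower member (against 1.93%), SEC14L1P1.

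**Figure D2:**
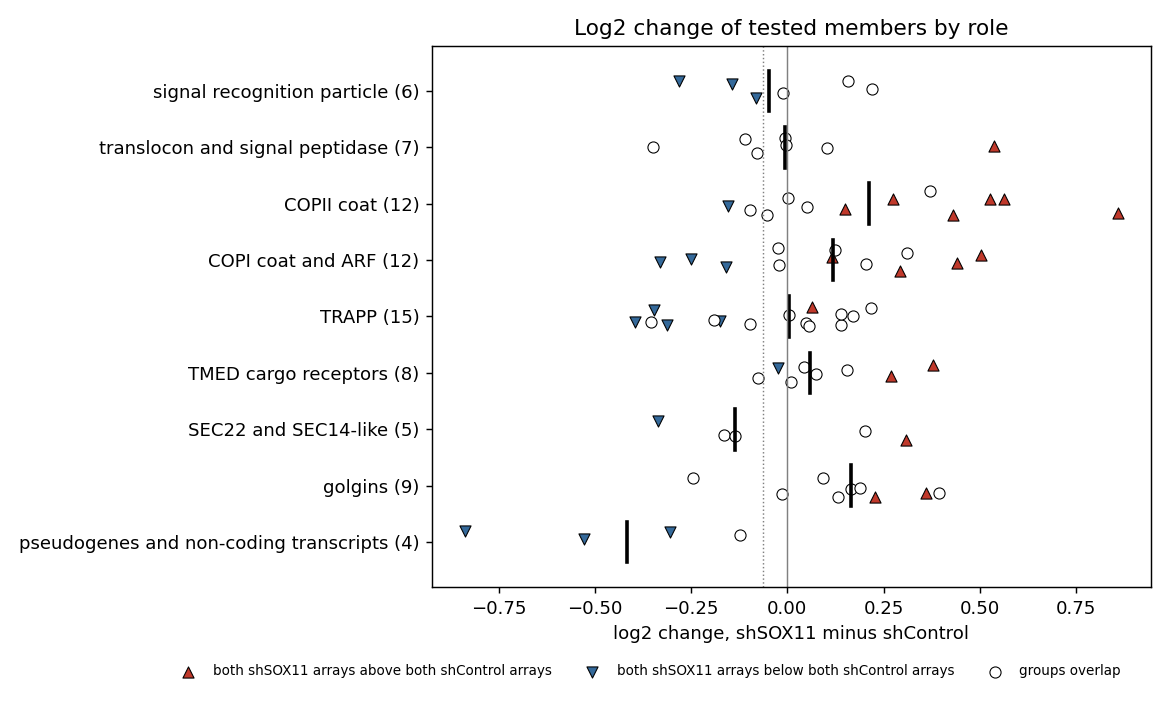
Log2 change of each tested member, shSOX11 minus shControl, by role. Upward triangles have both shSOX11 arrays above both shControl arrays, downward triangles both below, and open circles overlap; short bars are medians and the dotted line is the median of all genes, -0.063. COPII has 6 upward triangles among 12 members, 1 of them (SEC31B) not above the signal threshold with shControl. Of all genes tested, 16.2% have both shSOX11 arrays above both shControl arrays.

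The promoters of these genes hold a feature that the name rule did not use. RefSeq promoters (GRCh38.p14) were found for 73 of the 83 coding members, and the 250 bases before the first listed start were searched on both strands. The letters searched were those known from the unfolded protein response: TGACGTG (reverse CACGTCA), the core of an element bound by ATF6 and XBP1, ACGTG, which TGACGTG contains, and the ER stress element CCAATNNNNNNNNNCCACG. TGACGTG was present in 10 of the 73 promoters (13.7%), against 1.71% of 27305 promoters of all genes and 2.11% of 9705 promoters of the genes tested. With every listed start counted the shares were 13.7% of members and 2.05% of all genes. ACGTG was present in 29 (39.7%), against 18.7% of all promoters and 23.4% of those of genes tested. The ER stress element was in 0 of 73, against 0.0806% of all promoters, which says only that these letters are not in this window. The 10 genes with TGACGTG were ARF1, COPB1, COPB2, SEC13, SEC16B, SEC24A, GOLGA1, GOLGA5, SRP19 and SEC62. Stretches of 5 of these promoters are shown because they carry the shared motif across coat, tether and targeting genes. SEC23IP is shown because it is described further as a member with a low p. It holds 4 ACGTG matches, as do SEC24A and TRAPPC2L, and its stretch CACGTG is matched on both strands. Capitals mark TGACGTG and ACGTG matches on either strand, all positions are on GRCh38.p14, and a match is a description of letters, not a binding site.
COPB2 (chr3:139389801-139389880, minus strand): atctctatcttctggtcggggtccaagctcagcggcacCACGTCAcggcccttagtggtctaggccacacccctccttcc
COPB1 (chr11:14499822-14499901, minus strand): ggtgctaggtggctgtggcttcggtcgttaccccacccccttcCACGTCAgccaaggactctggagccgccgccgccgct
SEC13 (chr3:10321213-10321292, minus strand): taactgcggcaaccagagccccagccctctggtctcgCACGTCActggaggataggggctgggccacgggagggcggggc
GOLGA5 (chr14:92794085-92794164, plus strand): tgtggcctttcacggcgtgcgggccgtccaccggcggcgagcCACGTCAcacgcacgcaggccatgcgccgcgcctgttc
SRP19 (chr5:112861137-112861216, plus strand): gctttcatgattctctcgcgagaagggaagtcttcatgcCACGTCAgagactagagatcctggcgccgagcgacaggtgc
SEC23IP (chr10:119892480-119892589, plus strand): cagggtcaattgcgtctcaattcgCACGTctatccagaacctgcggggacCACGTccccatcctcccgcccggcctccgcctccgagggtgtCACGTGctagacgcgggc

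The 10 members with TGACGTG included 5 with a log2 change above 0 and 5 below, with a median of 0.044 and a range from -0.097 to 0.37. The 0.37 belongs to SEC16B, which was above the signal threshold on 1 array of each group alone. The 54 other tested members with a promoter had a median of 0.046, and they include SEC31B, whose direction the filter fixed. Both shSOX11 arrays lay above both shControl arrays for 2 of the 10, COPB2 and SEC24A, and below for 1, SRP19. Of all genes tested, 16.2% were higher and 24.9% lower in this way, and 41.9% had a log2 change above 0.

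The signal recognition particle had 6 members tested, with a median log2 change of -0.046. On both shSOX11 arrays 0 were higher (against 16.2% of all genes) and 3 lower (50%, against 24.9%). Each role holds few members, so such shares are coarse. SRP14, which with SRP9 forms the part that slows translation, had signals of 5977 and 5119.9 with shSOX11, against 6735 and 6709 with shControl. It was 1.22-fold lower (log2 change -0.28, SE 0.14, limma adjusted p = 0.607), by -0.17 on shSOX11.1 and -0.39 on shSOX11.3. SRP9 had 8333 and 7906 with shSOX11 against 8504 and 9447 with shControl, a log2 change of -0.14 (SE 0.13) that shrank to -0.0089 with quantile normalization and -0.060 with median centring. The groups were separated for both partners in the deposited scaling, by margins that did not pass the test. SRP54, the GTPase that binds the signal peptide, had 1005 and 883 with shSOX11 against 945 and 692 with shControl, and the groups overlapped. SRP72, a scaffold subunit, had a log2 change of -0.010 at its brightest probe set. Its 5 other probe sets past the filter were each above 0, between 0.15 and 0.43. All but the one at 0.21 overlapped, and the one at 0.43 had signals near the threshold.

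In the channel and signal peptidase group 1 of 7 members was separated (14.3%, against 41% of all genes). This was SEC61A2, a second form of the channel's alpha subunit. Its signal was 109.6 and 78.6 with shSOX11, against 58.0 and 70.5 with shControl (log2 change 0.54, SE 0.29, limma adjusted p = 0.622), and without shSOX11.1 the change was 0.30. The other SEC61A2 probe sets had log2 changes of 0.19 and -0.15, both overlapping. SEC61A1, the main alpha subunit, had 794 and 532 with shSOX11 against 794 and 865 with shControl. It lay at -0.64 from the control mean on shSOX11.3 and at -0.061 from it on shSOX11.1. SEC61B, the beta subunit of the channel, overlapped at 9357 and 8438 with shSOX11 against 8347 and 9504 with shControl. SEC11C, a catalytic subunit of signal peptidase, overlapped at 6578 and 5667 with shSOX11 against 6958 and 5982 with shControl. The log2 changes of SEC11C (-0.080) and SEC61B (-0.0034) turned above 0 with quantile normalization and with median centring.

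Of the 12 COPII members tested, SEC31B passed the filter through the shSOX11 arrays alone, which fixed its direction. Of the other 11, 8 had a log2 change above 0, 5 were higher and 1 lower on both shSOX11 arrays, and the median was 0.15 (0.21 with SEC31B). Of all genes above the threshold in each group, 42.2% had a log2 change above 0, 15.6% were higher and 23.5% lower. SEC23A, the inner coat subunit that stimulates GTP hydrolysis by SAR1, had 846 and 1057 with shSOX11, against 651 and 663 with shControl. It was 1.44-fold higher (log2 change 0.53, SE 0.16, limma unadjusted p = 0.0121, adjusted p = 0.462). Its other probe set pointed the same way, at 70.8 and 77.3 with shSOX11 against 50.3 and 46.7 with shControl. SEC23IP, a phospholipase-like protein that binds SEC23 at ER exit sites, had 531 and 658 with shSOX11, against 377 and 425 with shControl. It was 1.48-fold higher (log2 change 0.56, SE 0.18, limma unadjusted p = 0.0118, adjusted p = 0.462). For both genes the groups did not overlap, and shSOX11.3 was the higher of the knockdown arrays.

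SEC23B, the paralogue of SEC23A, overlapped at its brightest probe set, with 1710.1 and 2198 with shSOX11 against 1974 and 1902 with shControl and a log2 change of 0.00085 (SE 0.16). Another SEC23B probe set had 759 and 849 with shSOX11 against 509 and 569 with shControl and was 1.49-fold higher, and the remaining one overlapped at a log2 change of 0.025. The probe sets of this gene thus gave unlike values.

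The SEC24 subunits pick the cargo of the coat. They and the other coat members given next without a low p, SEC16A, SEC31B and SEC13, lie outside the naming rule and were chosen after their values had been seen, to complete the complex. SEC24A had 1064 and 959.7 with shSOX11 against 793 and 882 with shControl, a log2 change of 0.27 (SE 0.15). SEC24B had 774 and 856 with shSOX11 against 749.6 and 719 with shControl, a log2 change of 0.15 (SE 0.15). SEC24D had 263 and 410.2 with shSOX11 against 227 and 262 with shControl, a log2 change of 0.43 (SE 0.23). These 3 did not overlap between groups, although for SEC24D the shSOX11.1 value and the higher control were within 1 unit of signal. SEC24C overlapped, with a log2 change of 0.050. SEC31B, a form of the outer coat subunit SEC31, was under the threshold on both shControl arrays. Its signals of 30.2 and 30.6 with shSOX11 lay near the threshold, at a mean of 1.22-fold the threshold. With an SE of 0.65 on its log2 change, this is not read as an increase. SEC31A, the outer coat subunit named by the rule, overlapped at 1558 and 1383 with shSOX11 against 1507 and 1541 with shControl, and its log2 change of -0.054 turned to 0.029 with median centring. SEC13, the other outer coat subunit, overlapped at a log2 change of -0.097. SEC16A, the scaffold of ER exit sites, was the 1 COPII member lower on both shSOX11 arrays (log2 change -0.15, SE 0.17).

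COPI subunits and ARF GTPases lay on both sides. Of 12 tested, 4 were higher (33.3%, against 16.2% of all genes) and 3 lower (25%, against 24.9%) on both shSOX11 arrays. The median log2 change was 0.12. ARF4, a GTPase of early Golgi membranes, had 2098 and 1900.2 with shSOX11, against 1359 and 1462 with shControl. It was 1.42-fold higher (log2 change 0.50, SE 0.14, limma unadjusted p = 0.00732, adjusted p = 0.416). Its other probe set agreed in direction, at 1005 and 766 with shSOX11 against 700.2 and 630.3 with shControl. The brightest probe sets of the related ARF5 and ARF3 were lower on both shSOX11 arrays. ARF5 had 469 and 449 with shSOX11 against 507 and 587 with shControl, a log2 change of -0.25 (SE 0.16). ARF3 had 1391 and 1396 with shSOX11 against 1630.0 and 1487 with shControl, a log2 change of -0.16 (SE 0.14). ARF6, a GTPase of the plasma membrane and endosomes, had 2469 and 2444 with shSOX11 against 2165 and 2373 with shControl, separated by a small margin (log2 change 0.12, SE 0.14; 0.050 without shControl.1). ARF1 could be followed at 1 probe set, where it overlapped at a log2 change of -0.025.

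Among the COPI coat subunits COPA (alpha) had 907 and 659 with shSOX11, against 568 and 572 with shControl. It was 1.36-fold higher (log2 change 0.44, SE 0.19, limma unadjusted p = 0.0437, adjusted p = 0.585). The difference was larger on shSOX11.1, at 0.67 above the control mean, than on shSOX11.3, at 0.21. The other 3 COPA probe sets were below 0 and overlapped, and over its probe sets the mean log2 change was -0.044. That mean includes probe sets with signals near the threshold. The lowest, at a log2 change of -0.44, had 14.4 and 28.1 with shSOX11 against 25.5 and 29.2 with shControl. COPB1 (beta) overlapped at 4729 and 4088 with shSOX11 against 4882 and 4086 with shControl, and its log2 change of -0.023 turned to 0.047 with quantile normalization and 0.060 with median centring. COPB2 (beta prime), whose promoter is shown above, stood at 1823 and 1780.2 with shSOX11 against 1458 and 1482 with shControl, a log2 change of 0.29 (SE 0.14). COPE (epsilon) stood at 654 and 595 with shSOX11 against 781 and 789 with shControl, a log2 change of -0.33 (SE 0.15). Subunits of the same coat thus differed in direction. COPG1 (gamma) lay 0.44 above the control mean on shSOX11.1 and -0.030 from it on shSOX11.3, and COPG2, its paralogue, lay -0.16 and 0.78 from it on the same arrays. ARF1, ARF3, ARF5, COPB2, COPE, COPG1 and COPG2 lie outside the naming rule and were chosen after their values had been seen.

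**Figure D3:**
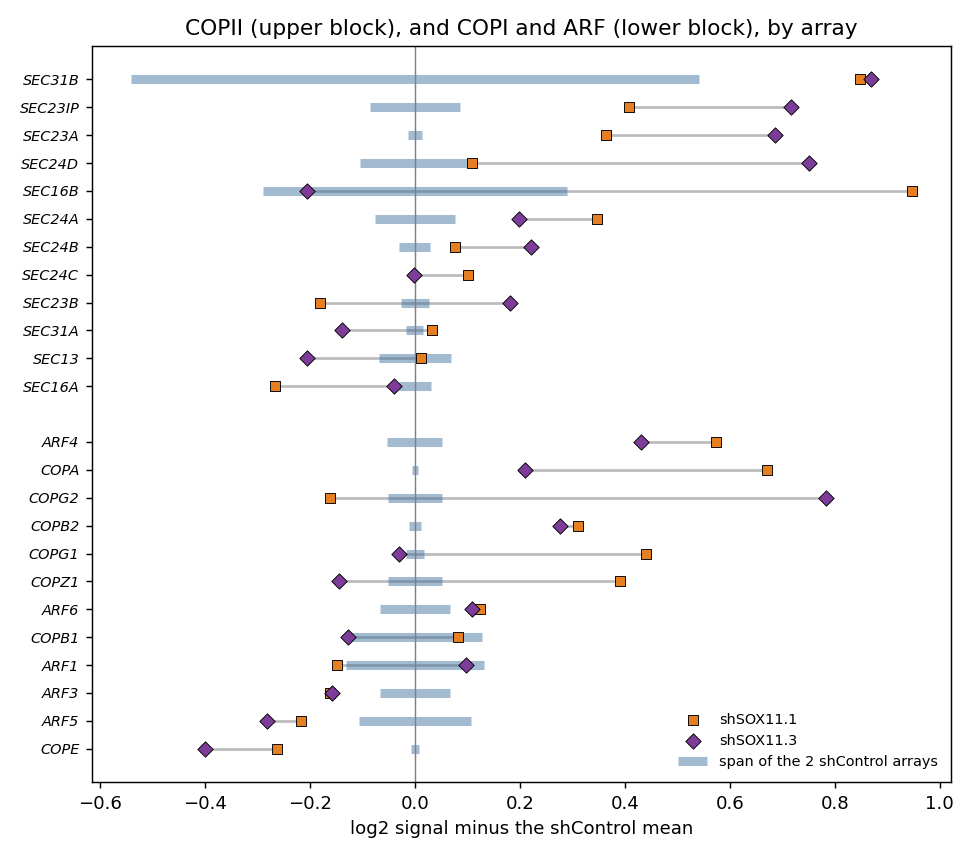
Log2 signal of COPII, COPI and ARF members on shSOX11.1 and shSOX11.3, as the difference from the mean of the shControl arrays, whose span is the bar. ARF4, COPB2, SEC23A and SEC23IP lie above the control span on both knockdown arrays and COPE and ARF5 below it, while COPG1 and COPG2 differ between the knockdown arrays.

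TRAPP, the complex that tethers vesicles and activates RAB1, had 15 members tested, with a median log2 change of 0.0035. On both shSOX11 arrays 1 was higher (6.67%, against 16.2% of all genes) and 4 were lower (26.7%, against 24.9%). TRAPPC2L had 771 and 635 with shSOX11, against 1005 and 789 with shControl (log2 change -0.35, SE 0.18, limma adjusted p = 0.618). The change was -0.17 without shControl.1 and -0.52 without shControl.2. Its other probe sets lay at -1.47 and 0.50, with signals near the threshold. TRAPPC6A had 192 and 186 with shSOX11 against 226 and 244 with shControl, a log2 change of -0.31 (SE 0.18), and both shSOX11 arrays stood below both controls by a like amount. TRAPPC4, a core subunit, overlapped at 1067 and 883 with shSOX11 against 1064 and 1155 with shControl. TRAPPC8, a subunit of the TRAPPIII form, was the higher one, at 1808 and 1672 with shSOX11 against 1668 and 1656 with shControl, a log2 change of 0.065 (SE 0.14) that was 0.0089 without shSOX11.1. TRAPPC5 and TRAPPC9, named because they were the remaining separated members, had log2 changes of -0.17 and -0.40.

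TMED cargo receptors had 8 members tested, with a median log2 change of 0.059. On both shSOX11 arrays 2 were higher (25%, against 16.2% of all genes) and 1 was lower (12.5%, against 24.9%). TMED5 had 2936 and 3592 with shSOX11, against 2431 and 2566 with shControl. It was 1.30-fold higher (log2 change 0.38, SE 0.15, limma unadjusted p = 0.0352, adjusted p = 0.560), by 0.23 on shSOX11.1 and 0.52 on shSOX11.3. Of its other probe sets, those at 0.39 and 0.54 were separated and the one at -0.084 overlapped. TMED10, a core member of TMED complexes, overlapped at 4195 and 3669 with shSOX11 against 3940.0 and 3849 with shControl, a log2 change of 0.011. TMED4, named as the 1 lower member, was lower by a log2 change of -0.023.

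**Figure D4:**
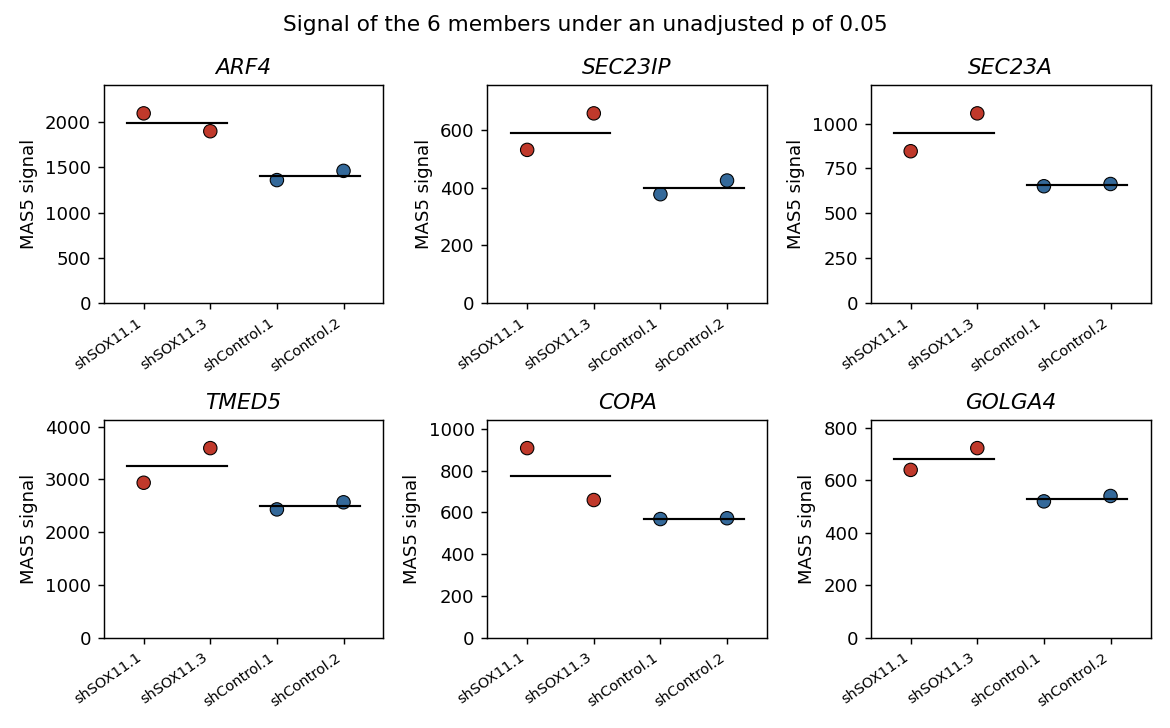
MAS5 signal (vertical axis) on each of the 4 arrays for the 6 members under an unadjusted limma p of 0.05, with a bar at the mean of each group. In each panel both shSOX11 arrays lie above both shControl arrays; shSOX11.3 is the higher knockdown array for SEC23IP, SEC23A, TMED5 and GOLGA4, and shSOX11.1 for ARF4 and COPA.

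TMED2, the partner of TMED10, had 6680.2 and 7409.8 with shSOX11 against 5568 and 6111 with shControl at its brightest probe set, with no overlap (log2 change 0.27, SE 0.14, limma adjusted p = 0.614). Its dimmer probe sets differed more. One had a signal of 328 and 1035 with shSOX11, against 167 and 111 with shControl, 4.29-fold higher (log2 change 2.10, SE 0.46). The other had 449.5 and 1284 with shSOX11, against 201 and 172 with shControl, 4.08-fold higher (log2 change 2.03, SE 0.41). At both, shSOX11.3 stood far above shSOX11.1, which in turn stood above the controls. In a limma fit of every probe set on its own, added after the values had been seen, their unadjusted p was 0.00146 and 0.000819, and their adjusted p over 28202 probe sets was 0.397 and 0.348. Where these probe sets lie in the transcript was not analysed here.

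SEC23IP had a log2 change above 0 at each of its 4 probe sets past the filter. Besides the brightest, one had 196 and 229.8 with shSOX11 against 83.5 and 148 with shControl, 1.91-fold higher. Another overlapped at 207 and 179.6 with shSOX11 against 184 and 159 with shControl. The last had 54.2 and 46.5 with shSOX11, at a mean of 2.02-fold the threshold, and was under the threshold on both shControl arrays. It passed the filter through the shSOX11 arrays alone, which fixed its direction. Over the 163 member probe sets fitted on their own, 14 were under an unadjusted limma p of 0.05 and higher with shSOX11 (8.59%, against 4.5% of 28202 probe sets). The 28202 also hold probe sets without a single symbol, unlike those of the members. There were 0 lower ones, against 3.76%, and 0 passed the adjusted threshold. The groups did not overlap for 42 higher member probe sets (25.8%, against 18.9%) and 24 lower ones (14.7%, against 21.8%). Among the 42 are the SEC31B probe set and the dimmest SEC23IP one, which passed the filter through the shSOX11 arrays alone. The 14 belong to 10 genes, so they are not 14 separate observations, and 9 of them are not the brightest of their gene. The SEC23IP probe set under the threshold on both shControl arrays is 1 of the 14, and 13 remain without it.

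**Figure D5:**
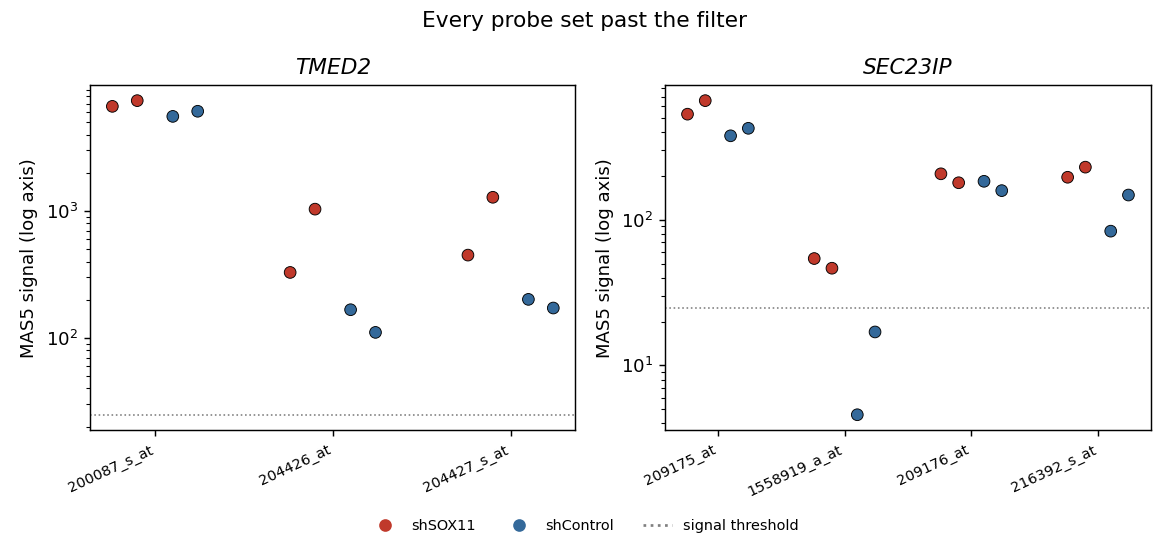
MAS5 signal (log axis) of the TMED2 and SEC23IP probe sets past the filter on each of the 4 arrays, with the signal threshold of 24.83 as a dotted line. The brightest TMED2 probe set is 1.21-fold higher with shSOX11, and the dimmer ones 4.29-fold and 4.08-fold.

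Genes with golgin symbols, most but not all of them long coiled-coil tethers of the Golgi, had 9 members tested, with a median log2 change of 0.17. Above 0 were 7 (77.8%, against 41.9% of all genes). On both shSOX11 arrays 2 were higher (22.2%, against 16.2%) and 0 lower (against 24.9%). GOLGA4, a tether of the trans-Golgi, had 639.7 and 723 with shSOX11, against 519.7 and 540.2 with shControl. It was 1.28-fold higher (log2 change 0.36, SE 0.16, limma unadjusted p = 0.0483, adjusted p = 0.587). With genes above the threshold in 1 group alone left out of the fit, the unadjusted p was 0.0501. Its other probe set overlapped at a log2 change of 0.014. GOLGB1 (giantin), named as the other separated golgin, had 398 and 433 with shSOX11 against 364 and 345 with shControl, and its other probe set overlapped at -0.097. GOLGA2 (GM130, of the cis-Golgi) overlapped at 136 and 199.5 with shSOX11 against 115 and 137 with shControl. GOLGA7, which helps to palmitoylate RAS proteins, overlapped at 1004 and 855 with shSOX11 against 915 and 782 with shControl, while its other probe set was 1.54-fold higher, at 240.3 and 286 with shSOX11 against 165 and 176 with shControl. GOLGA8A and GOLGA8N belong to a family of near-identical copies and rest on probe sets marked for cross-hybridization, so their log2 changes of 0.19 and -0.014 may mix several genes.

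The SEC22 and SEC14-like genes had 5 members tested. On both shSOX11 arrays 1 was higher (20%, against 16.2% of all genes) and 1 lower (20%, against 24.9%). SEC22B, a SNARE of ER to Golgi vesicles, had 512 and 645 with shSOX11 against 774 and 680.05 with shControl and was 1.26-fold lower (log2 change -0.34, SE 0.17, limma adjusted p = 0.617), by -0.50 on shSOX11.1 and -0.17 on shSOX11.3. SEC22A had 114 and 107 with shSOX11 against 89.7 and 88.9 with shControl, a log2 change of 0.31 (SE 0.22), and its other probe set was separated the other way, at -0.26. SEC14L1, of the lipid-binding family, overlapped at 514 and 616 with shSOX11 against 633 and 603 with shControl.

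The 4 pseudogenes and non-coding transcripts past the filter had log2 changes below 0, where 58.1% of all genes did. On both shSOX11 arrays 3 were lower (75%, against 24.9% of all genes). SEC14L1P1 had 30.3 and 23.3 with shSOX11, against 48.2 and 46.8 with shControl (log2 change -0.84, SE 0.42, limma adjusted p = 0.614). Its signals lay near the threshold, and shSOX11.3 was below it. SEC24B-AS1 had 32.7 and 58.0 with shSOX11 against 59.0 and 66.8 with shControl, a log2 change of -0.53 (SE 0.38) that was -0.11 without shSOX11.1. GOLGA2P5 had 122.5 and 85.4 with shSOX11 against 124.6 and 128 with shControl, with shSOX11.3 the low one and a change of -0.043 without it. GOLGA2P10, on a probe set marked for cross-hybridization, overlapped at 121.5 and 127 with shSOX11 against 124 and 148 with shControl. The 12 members that did not pass the filter were COPZ2, GOLGA6A, GOLGA6L2, GOLGA6L6, GOLGA7B, GOLGA4-AS1, SEC1P, SEC61G-DT, SEC14L3, SEC14L4, TMED6 and TRAPPC3L.

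Other genes of the route, which the name rule does not take, were read from a list of 62, of which 60 were tested. Their median log2 change was 0.052. The groups did not overlap for 15 higher genes (25%, against 16.2% of all genes) and 10 lower ones (16.7%, against 24.9%). At an unadjusted limma p under 0.05 there were 4 higher and 2 lower (10% of the 60, against 8.38% of all genes), and 0 passed the adjusted threshold. ERGIC2, of the ER to Golgi intermediate compartment, had 1879 and 1722 with shSOX11 against 1169.2 and 1364 with shControl, 1.42-fold higher. ERGIC1, of the same compartment, had 627 and 540.5 with shSOX11 against 828 and 890.1 with shControl, 1.47-fold lower. These members of one compartment lay on opposite sides, with log2 changes of 0.51 (SE 0.15) and -0.56 (SE 0.16). COG5, a tether subunit of the Golgi, had 784 and 789.9 with shSOX11 against 587 and 582 with shControl. MIA2, which helps load COPII vesicles, had 225 and 267 with shSOX11 against 171 and 183 with shControl. NSF, the ATPase that recycles SNAREs, had 774 and 717 with shSOX11 against 601 and 561 with shControl. GBF1, the exchange factor that loads ARF GTPases with GTP at the cis-Golgi, was the other lower one, at 96.4 and 71.7 with shSOX11 against 119 and 131 with shControl (log2 change -0.59, SE 0.25).

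Of 8 regulators of secretory genes 7 were tested, and 0 lay under an unadjusted limma p of 0.05 (against 8.38% of all genes). Their log2 changes were above 0 for 2 and below 0 for 5, with a median of -0.087. CREB3, a membrane-bound factor known to act on ARF4, had 142 and 93.0 with shSOX11 against 87.8 and 79.2 with shControl (log2 change 0.47, SE 0.27, limma adjusted p = 0.649). XBP1 had 987 and 832 with shSOX11 against 769 and 738 with shControl (log2 change 0.27, SE 0.16, limma adjusted p = 0.650). The groups did not overlap for either. ATF6 was lower on both shSOX11 arrays, at 463 and 423 with shSOX11 against 487 and 469 with shControl (log2 change -0.11, SE 0.16). CREB3L4, CREB3L2, ATF4 and ATF6B overlapped, at -0.21, -0.090, -0.087 and -0.058. These regulators were given after their values had been seen.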

How the data were processed

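RNA of 4 Z138 samples was hybridised to 1 array each. The values deposited by the authors are probe set intensity, made with MAS5 in Affymetrix Expression Console per the submitters' processing notes. The sources used here name neither versions nor a scaling target. The 2% trimmed mean came to 150.02 on every array, and dim MAS5 values are noisy.

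Intensities were taken to log2 with no pseudocount. Of 54675 probe sets, 41091 carried 1 symbol. Of all 54675, array controls aside, 28202 passed the filter, with or without a single symbol. With 1 probe set per gene, 11938 genes entered limma 3.58.1 under R 4.3.3 (lmFit, then eBayes with trend; two-sided; Benjamini-Hochberg over all genes), with 8.39 degrees of freedom; the scripts were tested on simulated data. For a single gene, exact permutation of 2 against 2 arrays gives no p below 0.333.

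Values on all arrays are given for members 1.5-fold apart on every pair, members under an unadjusted p of 0.05, and the 2 brightest and 2 of smallest p in each role (32 members), and for up to 6 related genes; values of other members were picked after they had been seen, to complete the complexes. Members, lists and motifs were chosen with earlier results of these data known. The alternatives changed normalization, pseudocount (32), filter, variance model, choice of probe set and threshold, or left out an array.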

Additional observations from a re-analysis of the deposited data

How the results depend on the processing

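The number of arrays limits every value here, and signal over background limits SEC31B, SEC16B and SEC14L1P1. No paired analysis was possible because the groups share 1 construct number alone. The count of members past a limma adjusted p of 0.05 was 0 under every alternative that kept all arrays, the looser threshold of 0.10 and each probe set on its own and the added filter (above the threshold in each group) included; the last 2 were chosen after seeing the data. The fits of 1 value per gene among these had 4 to 9 members under an unadjusted p of 0.05, where 7.29% to 9.86% of all genes were. With 1 array left out it was 0 to 8 (0 without either shControl array, 8 without shSOX11.1, 2 without shSOX11.3). Such a fit takes its error from the intact group alone, so its counts are not read as a strengthening among members. Over all genes, the share under an unadjusted limma p of 0.05 rose without either shSOX11 array and fell without either shControl array. In these fits 63.9% to 77.9% of all genes did not overlap, against 41% with all arrays. The same fits gave 0 to 19 members under an unadjusted p of 0.05 (19 and 12 when shSOX11.1 or shSOX11.3 is dropped, 0 and 1 when shControl.1 or shControl.2 is), against 6 with all arrays, and 50 to 60 members without overlap, against 33, since fewer pairs have to be apart. Among all genes, 953 passed the adjusted threshold without shSOX11.1, 211 without shSOX11.3 and 0 in the other fits of 1 value per gene. The members' median log2 change of 0.046 was 0.13 with median centring, which moved the median of all genes by 0.083, and 0.077 with probe sets averaged per gene. It ran from -0.0072 to 0.051 with 1 array left out. SOX11 ran from -1.28 (probe sets averaged) to -1.15 (median centring) over all alternatives. With 1 array left out it ran from -1.24 to -1.23 (-1.2416 to -1.2251). Its limma adjusted p, 0.131 with all arrays, was 0.061 to 0.646 under the alternatives that kept all arrays, 0.00309 without shSOX11.1, 0.00211 without shSOX11.3, 0.999 without shControl.1 and 0.996 without shControl.2.

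Some log2 changes turned, and the cause was not tested. Of the 78 members, 11 turned with median centring and 5 with quantile normalization. Of the 32 members named by rule, 13 turned or moved by over 1.5 times under one of these scalings, and 24 with 1 array left out. The values that follow are of those 32. Quantile normalization put COPB1 at 0.047, SEC11C at 0.022 and SEC61B at 0.13. Median centring put COPB1 at 0.060, SEC11C at 0.0034, SEC31A at 0.029 and SEC61B at 0.080. Averaging probe sets, dim ones included, put COPA at -0.044, COPB1 at 0.13, SEC11C at 0.10, SEC14L1 at 0.15, SEC31A at 0.0078, SEC61B at 0.11 and TMED10 at -0.074. With 1 array left out, COPB1 ran from -0.15 to 0.11, GOLGA2P10 from -0.25 to 0.0061, SEC11C from -0.19 to 0.030, SEC23B from -0.18 to 0.18, SEC31A from -0.14 to 0.032, SEC61B from -0.097 to 0.090, SRP54 from -0.0038 to 0.45 and TMED10 from -0.086 to 0.11.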

Other observations

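Probe sets of one secretory gene often gave unlike values. Of 48 members with at least 2 probe sets past the filter, 22 had all of them on one side of 0 and 26 had some on each side. Some of these probe sets have signals near the threshold. The matching share over all genes is not given, so this is not read as a trait of secretory genes. The median range of log2 changes among the probe sets of a gene was 0.37. Over probe sets above the threshold in each group, the widest was 1.97, for TRAPPC2L, between probe sets whose signals lie near the threshold. TMED4 had a log2 change of -0.023 at its brightest probe set and was 1.67-fold higher at another, with 446 and 413 with shSOX11 against 195 and 340.4 with shControl. COPB1 had a log2 change of -0.023 at its brightest probe set and was 1.38-fold higher at another, with 1779 and 2185 with shSOX11 against 1479 and 1385 with shControl.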
